A study of Rattus norvegicus with 20 samples.

Results

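The genes described here are the glucocorticoid receptor Nr3c1, the mineralocorticoid receptor Nr3c2 and 8 genes that glucocorticoids are known to induce, namely Fkbp5, Tsc22d3, Sgk1, Zbtb16, Pdk4, Cdkn1a, Sult1a1 and Rasd1. They were chosen by name, with earlier results of these data known, and all 10 were present among the 32402 genes of the data. Poly(A) RNA was sequenced from punches of the supraoptic nucleus (SON) of male Wistar Han rats that were 3 months old (adult) or 18 months old (aged). At each age 5 rats were euhydrated with free access to water (EH) and 5 were dehydrated by removal of drinking water (DH), so that there were 4 groups and 20 libraries. The study's methods give 72 h without water and the sample labels give 2 days. Rats were group-housed, and per the study's methods whole cages were assigned at random to EH or DH. The cage of each rat is not labelled here, so a rat was taken as the replicate. The p-values measure the spread between rats, and a cage effect cannot be told apart from DH. No group carried a transgene or a drug, and no plasma hormone level was analysed here.

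Corticosterone, the main glucocorticoid of the rat, binds a receptor held in the cytoplasm by heat shock protein chaperones. The bound receptor enters the nucleus, attaches to response elements in DNA and raises or lowers transcription of nearby genes. The mineralocorticoid receptor binds the same hormone with higher affinity. Fkbp5 encodes a co-chaperone that lowers the hormone affinity of the receptor and is itself induced by it, which closes a feedback loop within the cell. A punch holds the magnocellular neurones that make vasopressin and oxytocin together with astrocytes, oligodendrocytes, microglia and vessels, so the cell in which a transcript arose is not known.

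Promoter windows from RefSeq (assembly GRCr8, 250 bases before to 50 bases after a transcription start) were found for 8 of the 10 genes, in 13 windows, because some genes have several starts. There was none for Nr3c2 and Zbtb16. The palindromic glucocorticoid response element, searched on both strands as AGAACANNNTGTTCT, was in none of the 13 windows and in 5 of 33469 windows of all genes (0.0149%). Its half-site AGAACA, which is also contained in the palindrome, was in 1 of the 13 windows and in 20.7% of all windows. The window that held it was that of Sult1a1, 89 to 84 bases before the start, and the half-site is in capitals below. The windows of Rasd1, which rose with DH at both ages, and of Fkbp5, which passed the test in adult rats alone, are shown beside it and held neither motif. All are printed in the direction of transcription.
Sult1a1, chr1:190706063-190706362, minus strand: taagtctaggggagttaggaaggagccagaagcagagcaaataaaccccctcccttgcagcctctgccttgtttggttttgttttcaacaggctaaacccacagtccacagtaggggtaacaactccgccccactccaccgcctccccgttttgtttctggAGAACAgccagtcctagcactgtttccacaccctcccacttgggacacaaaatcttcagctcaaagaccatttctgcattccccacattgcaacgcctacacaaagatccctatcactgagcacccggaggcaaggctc
Rasd1, chr10:45267633-45267932, minus strand: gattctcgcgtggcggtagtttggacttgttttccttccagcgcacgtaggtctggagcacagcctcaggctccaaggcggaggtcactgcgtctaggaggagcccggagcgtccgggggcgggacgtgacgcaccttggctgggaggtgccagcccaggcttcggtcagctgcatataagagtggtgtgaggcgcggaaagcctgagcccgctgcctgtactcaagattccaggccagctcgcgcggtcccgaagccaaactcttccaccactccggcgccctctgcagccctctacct
Fkbp5, chr20:6543506-6543805, minus strand: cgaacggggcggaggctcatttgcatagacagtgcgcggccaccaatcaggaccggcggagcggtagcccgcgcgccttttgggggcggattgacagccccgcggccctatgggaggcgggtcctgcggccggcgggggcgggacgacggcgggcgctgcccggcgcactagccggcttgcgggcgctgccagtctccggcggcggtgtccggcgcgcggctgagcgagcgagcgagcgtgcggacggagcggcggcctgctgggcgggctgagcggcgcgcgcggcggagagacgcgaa

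The libraries held 24268398 to 30348118 reads counted on genes (median 27691998). Levels below are read counts scaled for sequencing depth over all 20 libraries together (normalized counts), which allows the 4 groups to be compared for a gene but not genes with each other, since they are not divided by gene length. Values in lists follow the rat numbers of the labels, which are 1, 2, 4, 5 and 6 for adult EH and aged EH, 1, 2, 3, 4 and 5 for adult DH and 1, 2, 3, 5 and 6 for aged DH. Log2 fold changes (LFC) and p-values come from limma on log2 of the deposited normalized count plus 1, within the table of each comparison, and p-values were adjusted over every gene tested by the Benjamini-Hochberg method. Differentially expressed genes (DEGs) had an adjusted p under 0.05. Avp and Oxt, the vasopressin and oxytocin genes that mark the SON, had normalized counts of at least 115638 and 72409.9 in every rat.

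The 2 receptor transcripts changed little, and both changes that passed the test were decreases. Nr3c1 (ENSRNOG00000014096) had 2003, 1923, 2029.9, 2213 and 2339 normalized counts in adult EH rats and 2002, 1751, 1921, 2014 and 2015 in adult DH rats. The adult groups overlapped, and the LFC was -0.11 ± 0.06 (SE, limma adjusted p = 0.215). In aged EH rats it had 2009.7, 2076, 1866, 2015 and 2109, and in aged DH rats 1843, 1706, 1789, 1734 and 1674. Every aged DH rat lay below every aged EH rat, and Nr3c1 fell by 0.20 on the log2 scale (SE 0.04, 95% confidence interval -0.29 to -0.12, limma adjusted p = 0.00838). In RNA from whole punches, fewer cells of a type and less RNA per cell cannot be told apart. For Nr3c1 the aged LFC minus the adult LFC was -0.09 (interval -0.24 to 0.06, limma adjusted p = 0.727), so a decrease particular to aged rats was not shown.

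Nr3c2 (ENSRNOG00000034007) had 529, 501, 563, 532 and 471 normalized counts in adult EH rats and 463, 457, 441, 455 and 471 in adult DH rats. All adult DH rats were at or below the lowest adult EH rat except rat 5, which matched it to the whole count. Nr3c2 fell by 0.18 on the log2 scale with DH in adult rats (SE 0.05, limma adjusted p = 0.0456), and this call was lost in 11 of 18 alternative analyses, including 9 of the 10 that left out 1 adult rat. Aged EH rats had 484, 496, 474, 441 and 519.5, and aged DH rats had 471, 444, 497, 464 and 459. The aged groups overlapped, and the LFC was -0.05 ± 0.06 (SE, limma adjusted p = 0.708).

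**Figure D1:**
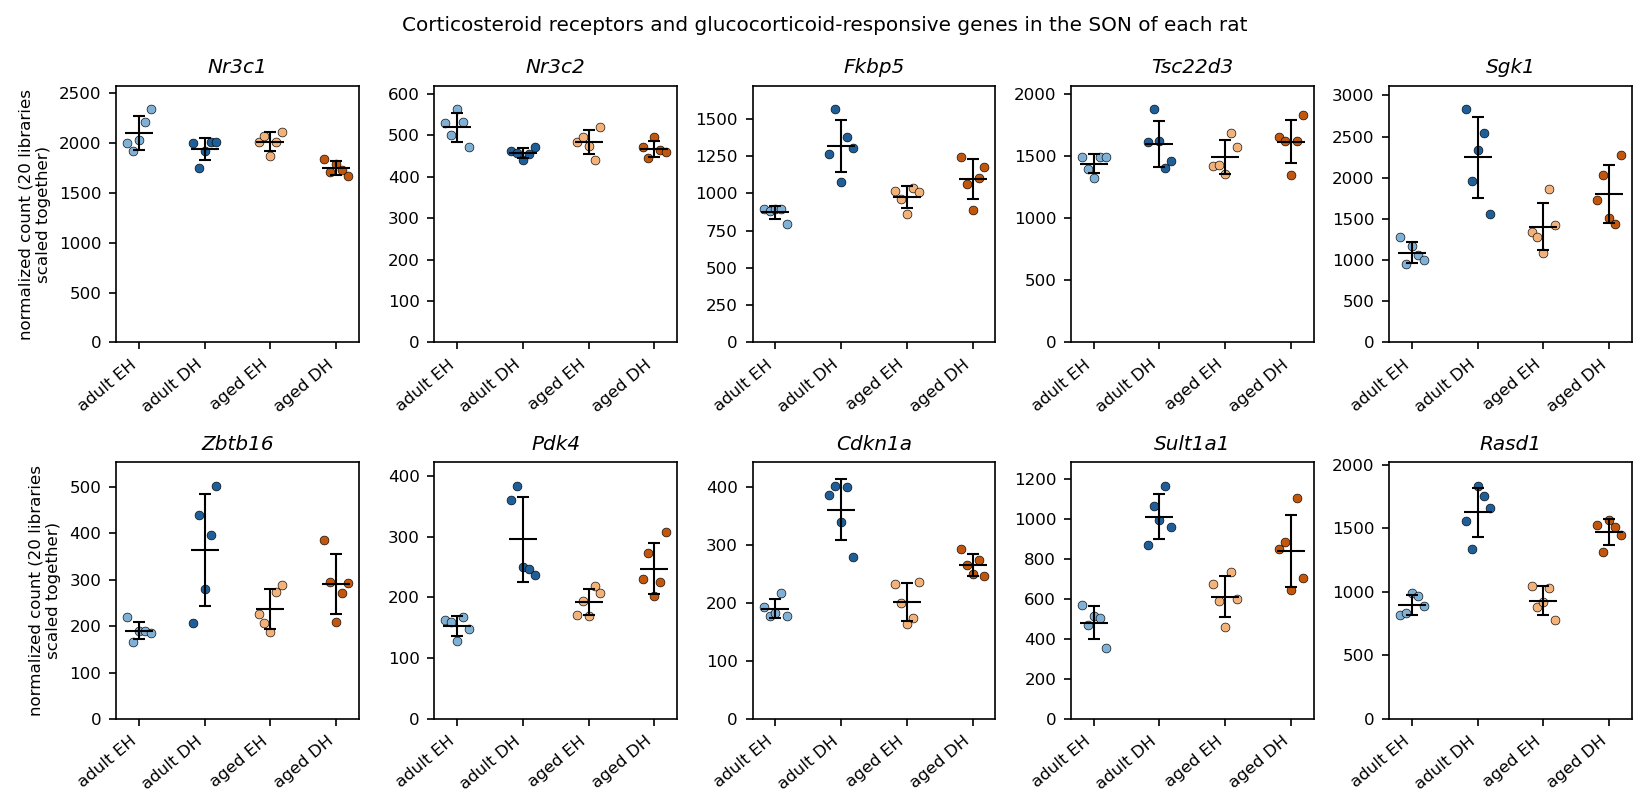
Normalized counts, scaled over all 20 libraries together, of the 10 genes (vertical axes, from 0) in each rat of the 4 groups, with the group mean and SD (n = 5). Adult DH rats stand above adult EH rats for Fkbp5, Sgk1, Pdk4, Cdkn1a, Sult1a1 and Rasd1, and aged DH rats stand above all aged EH rats only for Cdkn1a and Rasd1.

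Of the 8 responsive genes, 7 rose with DH in adult rats and Tsc22d3 did not pass the test. Together with Nr3c2, 8 of the 10 genes were DEGs in adult DH, where 12.7% of the 15280 genes tested were called, 7.67% as higher and 4.99% as lower. The median LFC of the 10 genes was 0.86, against -0.01 for all genes tested. For 6 of the 10 genes the ranges of adult DH and EH rats were separate, which held for 10.9% of all genes.

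In aged rats 3 of the 10 genes passed the test. Rasd1 and Cdkn1a rose and Nr3c1 fell, where 7.29% of the 15346 genes tested were called, 4.05% as higher and 3.25% as lower. The median LFC of the 10 genes was 0.32, against -0.00 for all genes. The same 3 genes had aged groups that did not overlap, as did 7.05% of all genes.

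Fkbp5 (ENSRNOG00000022523), the receptor's co-chaperone, had 898, 883, 894, 892 and 797 normalized counts in adult EH rats and 1268, 1565, 1080.2, 1379 and 1304 in adult DH rats. Every adult DH rat was above every adult EH rat, and expression rose 1.5-fold (LFC 0.59 ± 0.08 SE, limma adjusted p = 0.000257). The aged EH rats had 1019, 961, 859, 1037 and 1008, and aged DH rats had 1243, 1065, 889.8, 1106 and 1178. The aged groups overlapped through DH rat 3, and the LFC was 0.16 ± 0.08 (SE, limma adjusted p = 0.267). The group means in order were adult EH (873 ± 42.5, SD, n = 5), aged EH (977 ± 71.6), aged DH (1096 ± 134) and adult DH (1319 ± 176), and each group overlapped its neighbours in that order.

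Tsc22d3 (ENSRNOG00000056135) encodes a leucine zipper protein through which glucocorticoids dampen inflammatory signalling. It had 1494, 1396, 1323, 1497 and 1492 normalized counts in adult EH rats and 1619, 1878, 1620.3, 1408 and 1462 in adult DH rats. Adult DH rats 4 and 5 lay within the EH range, and the LFC was 0.14 ± 0.07 (SE, limma adjusted p = 0.191), with a 95% confidence interval of -0.00 to 0.29. In aged rats the counts were 1418, 1430.4, 1358, 1688 and 1572 with EH, and with DH they were 1657, 1623, 1353, 1624 and 1830.4. The aged LFC was 0.11 (interval -0.05 to 0.27, limma adjusted p = 0.426). The upper end of the adult interval did not reach the adult LFC of Fkbp5 (0.59). The aged interval of Tsc22d3 held the aged LFC of Fkbp5 (0.16).

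Sgk1 (ENSRNOG00000011815) encodes a kinase induced by serum and glucocorticoids that acts on ion channels and transporters. Adult EH rats had 1275, 947, 1177, 1057 and 1005 normalized counts, and adult DH rats had 2832, 1966, 2334, 2542 and 1566. The adult groups did not overlap, and expression rose 2.03-fold (LFC 1.02 ± 0.13 SE, limma adjusted p = 0.000224). In aged EH rats it had 1347, 1284, 1089, 1861 and 1433, and in aged DH rats 1733, 2033, 1516, 1445 and 2274. Aged EH rat 5 stood above 3 of the 5 aged DH rats, and the LFC was 0.36 ± 0.14 (SE, limma adjusted p = 0.133). Without that rat the aged LFC was 0.47 and passed the test (limma adjusted p = 0.0461), which it did in 1 of 18 alternative analyses.

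Pdk4 (ENSRNOG00000009565) encodes a kinase that inhibits the pyruvate dehydrogenase complex and so spares glucose. It had 163, 159.8, 128, 168 and 147 normalized counts in adult EH rats and 359.6, 384, 249.6, 247 and 237 in adult DH rats. Adult DH rats 1 and 2 were far above the other adult DH rats, which were themselves above every adult EH rat. The rise was 1.89-fold (LFC 0.92 ± 0.14 SE, limma adjusted p = 0.000766). In the aged EH group it had 172, 194, 169, 219 and 208, and aged DH rats had 229, 272, 202, 225 and 307. Only aged DH rat 3 lay within the aged EH range, and the LFC was 0.35 ± 0.12 (SE, limma adjusted p = 0.0887). DESeq2 on the recovered reads called it (LFC 0.36, DESeq2 adjusted p = 0.0440), the single call in 18 alternative analyses.

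Zbtb16 (ENSRNOG00000029980), which encodes a zinc finger transcription factor, varied most between rats after DH. Adult EH rats had 220.5, 167, 189.9, 189.8 and 186 normalized counts, and adult DH rats had 206, 439, 279.5, 397 and 502. Adult DH rat 1 lay within the EH range while the other 4 were above it, and expression rose 1.82-fold (LFC 0.87 ± 0.19 SE, limma adjusted p = 0.0105). The aged EH group had 226, 206, 188, 273 and 289, and the aged DH group had 387, 295, 209, 270.4 and 292. The aged groups overlapped, and the LFC was 0.29 ± 0.15 (SE, limma adjusted p = 0.293). The coefficient of variation was 10.2% in adult EH, 33.0% in adult DH, 18.3% in aged EH and 22.0% in aged DH.

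Cdkn1a (ENSRNOG00000000521) encodes an inhibitor of cyclin-dependent kinases that arrests the cell cycle. It had 192, 177, 183, 217 and 178 normalized counts in adult EH rats and 385, 402, 338, 399 and 278 in adult DH rats. The rise in adult rats was 1.89-fold with no overlap (LFC 0.92 ± 0.10 SE, limma adjusted p = 6.4e-05). Aged EH rats had 232, 200.1, 163, 173 and 236, and aged DH rats had 293, 265, 250.3, 274 and 246. The aged groups did not overlap either. In aged rats expression rose 1.33-fold (LFC 0.41 ± 0.11 SE, limma adjusted p = 0.0304). This call was lost in 7 of 18 alternative analyses, 6 of which left out 1 rat.

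Sult1a1 (ENSRNOG00000019342) encodes a sulfotransferase that conjugates phenolic compounds and showed the largest adult LFC of the 10 genes. Adult EH rats had 567, 468, 516, 505 and 352 normalized counts, and adult DH rats had 869, 1063, 994, 1164 and 957. The adult groups were far apart, and expression rose 2.11-fold (LFC 1.08 ± 0.11 SE, limma adjusted p = 3.12e-05). Counts in aged EH rats were 676, 587, 458, 732 and 598, and in aged DH rats they were 849, 885, 644, 1104 and 703. Aged DH rats 3 and 6 lay within the EH range, and the LFC was 0.45 ± 0.14 (SE, limma adjusted p = 0.0681). It passed the test in 3 of 18 alternative analyses. Without aged DH rat 3 the LFC was 0.54 (limma adjusted p = 0.0365), and with all 20 libraries scaled and fitted together it was 0.45 (limma adjusted p = 0.0426).

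Rasd1 (ENSRNOG00000003348), a small GTPase of the Ras family first known for its induction by dexamethasone, rose clearly at both ages. It had 814, 831, 988, 969 and 889 normalized counts in adult EH rats and 1555, 1335, 1833, 1749.5 and 1656 in adult DH rats, a 1.80-fold rise (LFC 0.85 ± 0.08 SE, limma adjusted p = 1.45e-05). Aged EH rats had 1047, 879, 919, 1033 and 774, and aged DH rats had 1526, 1309, 1561, 1513 and 1443, a 1.59-fold rise (LFC 0.67 ± 0.08 SE, limma adjusted p = 0.000294). The groups were separate at both ages, and both calls held in all 18 alternative analyses of each comparison. The difference between the ages was -0.19 (interval -0.44 to 0.06, limma adjusted p = 0.648).

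**Figure D2:**
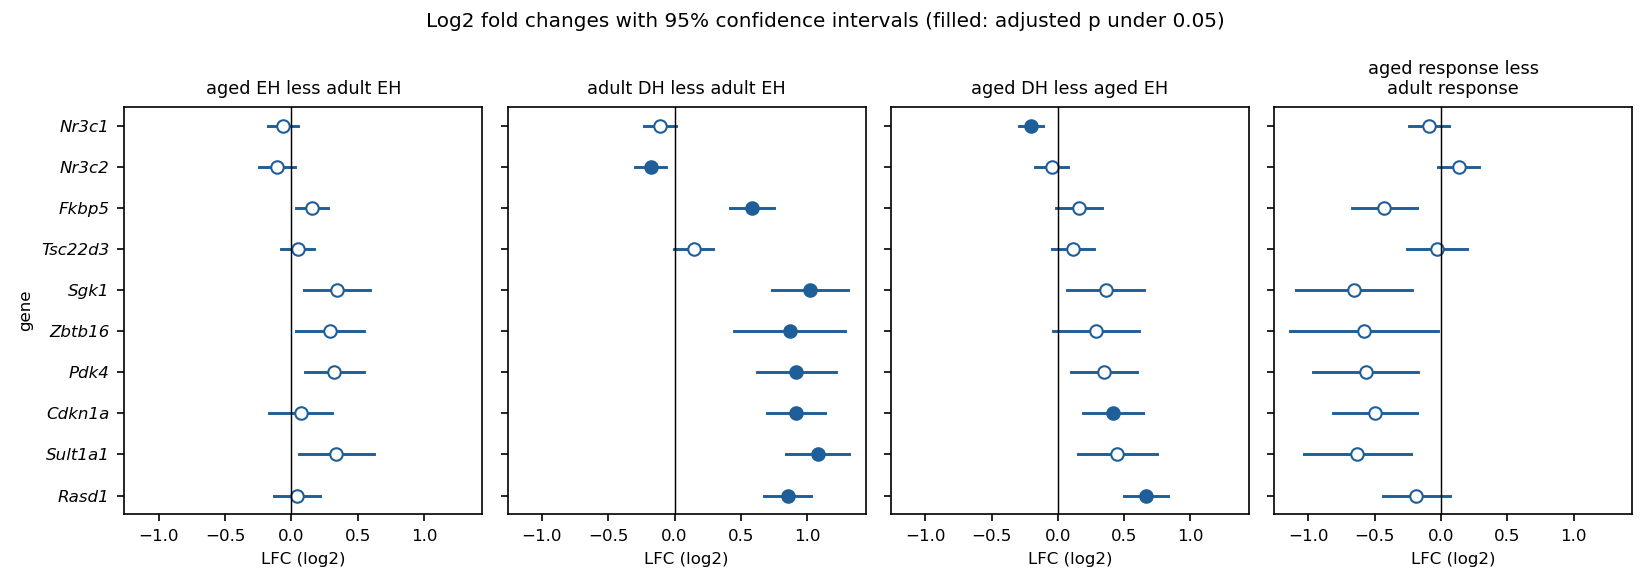
LFC (horizontal axes, log2) of the 10 genes with 95% confidence intervals in 4 comparisons, filled where the limma adjusted p was under 0.05. The filled points number 0 for ageing, 8 for adult DH, 3 for aged DH and 0 for the difference between the ages, where 9 of 10 points lie below 0.

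Whether the response to DH differed between the ages was tested as the aged LFC minus the adult LFC, in a single fit of all 20 rats. None of the 10 genes passed, and limma called 0 of 15326 genes (0.0%), with 1522 genes at an unadjusted p under 0.05. Count models on the whole reads gave 0 calls with edgeR and 55 with DESeq2, and none of the 10 genes was among the latter. Over all genes, 50.5% of the differences were below 0, with a median of -0.00. The difference was below 0 for 9 of the 10 genes, with a median of -0.46. Of these 9 genes, 8 had LFCs above 0 at both ages, with the smaller LFC in aged rats. The other, Nr3c1, had the more negative LFC in aged rats (-0.20 against -0.11 in adult rats). At an unadjusted p under 0.05, 6 of the 10 genes had a smaller LFC in aged rats, as had 5.07% of all genes. These were Sgk1 (-0.66, interval -1.10 to -0.22), Sult1a1 (-0.63, -1.04 to -0.22), Zbtb16 (-0.58, -1.14 to -0.02), Pdk4 (-0.57, -0.97 to -0.17), Cdkn1a (-0.50, -0.82 to -0.18) and Fkbp5 (-0.43, -0.67 to -0.18). Their limma adjusted p-values lay between 0.258 and 0.490, so a smaller response in aged rats was not shown for any single gene. The adult LFC is subtracted in this difference, and the 10 genes had a median adult LFC of 0.86, against -0.01 for all genes. The shares over all genes are thus not matched for the adult rise. The shares among genes that rose in adult rats were not computed. Cell type markers moved in the same comparison. Of 8 oligodendrocyte markers, 8 had differences above 0 (median 0.30) and 6 of these had an unadjusted p under 0.05. Of 6 markers of neighbouring cortical and amygdala neurones, 3 had a lower LFC in aged rats at an unadjusted p under 0.05, with a median of -1.08 over the 6. No marker of either list passed after adjustment, and their part in the differences of the 10 genes was not tested.

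Ageing alone, aged EH against adult EH, gave no DEG among the 10 genes, where 5.99% of the 15369 genes tested were called. The aged and adult EH rats of this comparison are the same rats as the controls of both DH comparisons. At an unadjusted p under 0.05, 5 of the 10 genes were higher in aged EH rats, compared with 9.84% of all genes. These were Sgk1 (LFC 0.34, limma adjusted p = 0.105), Sult1a1 (0.34, 0.157), Pdk4 (0.32, 0.0848), Zbtb16 (0.29, 0.180) and Fkbp5 (0.16, 0.124). For Pdk4 every aged EH rat lay above every adult EH rat, a separation seen in 6.38% of all genes. The remaining LFCs were Cdkn1a 0.07, Tsc22d3 0.05, Rasd1 0.04, Nr3c1 -0.06 and Nr3c2 -0.11. When aged EH rat 4 was left out, Fkbp5 (LFC 0.20, limma adjusted p = 0.0356) and Sgk1 (LFC 0.43, limma adjusted p = 0.0412) passed the test. In 7 of the 8 responsive genes the order of group means was adult EH, aged EH, aged DH and adult DH, and Tsc22d3 had its highest mean in aged DH. This order rests on the same rats and values as the LFCs above and is not a separate result. The share of all genes with this order was not computed.

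The responsive genes were then counted in single rats. Each of the 5 adult DH rats was above every adult EH rat in 7 or 8 of the 8 genes. The aged DH rats exceeded every aged EH rat in 6, 7, 2, 5 and 7 genes, in order of rat number. The matching share over all genes was not computed. These counts restate, rat by rat, the values behind the overlaps given above. Aged DH rat 3 was the rat with 2, for Cdkn1a and Rasd1, and it was the lowest of the aged DH rats for Fkbp5, Tsc22d3, Zbtb16, Pdk4 and Sult1a1 but the highest for Rasd1. Adult DH rat 2 was the highest adult DH rat for Fkbp5, Tsc22d3, Pdk4 and Cdkn1a and the lowest for Rasd1. The coefficient of variation was larger in DH than in EH for 7 of the 8 genes in adult rats (median 14.0% against 9.45%) and for 5 of 8 in aged rats (14.6% against 14.3%). The share of all genes with a larger coefficient in DH was not computed, so a wider spread particular to these genes was not shown.

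Within groups, 1 of the 45 pairs of these genes varied together between rats past the test. The r was above 0 in 31 pairs, and the share over pairs of all genes was not computed. Deviations from the group mean were correlated over the 20 rats for every pair, with p-values from 100000 permutations within groups and Benjamini-Hochberg adjustment over the pairs. Tsc22d3 and Pdk4 passed (Pearson's r = 0.82, permutation p = 8e-05, adjusted 0.0036) and were alone in doing so. Their Spearman's rho was 0.80 (permutation p = 0.00013, adjusted 0.00585). Without the 2 rats farthest from the median of Tsc22d3, aged DH rat 3 and adult DH rat 2, r was 0.75 (permutation p = 0.00046, adjusted 0.0207). Pdk4 and Tsc22d3 thus moved together between rats of a group. In adult DH the LFC was 0.92 for Pdk4 (interval 0.62 to 1.22) and 0.14 for Tsc22d3 (-0.00 to 0.29), which did not pass. Neither gene passed in aged DH, and a difference between their LFCs was not tested. The next pairs were Fkbp5 with Zbtb16 (r = 0.66, permutation p = 0.0142, adjusted 0.201; rho = 0.72, permutation p = 0.00409, adjusted 0.092) and Pdk4 with Rasd1 (r = -0.60, permutation p = 0.00975, adjusted 0.201; rho = -0.56, permutation p = 0.0203, adjusted 0.305), and neither passed.

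**Figure D3:**
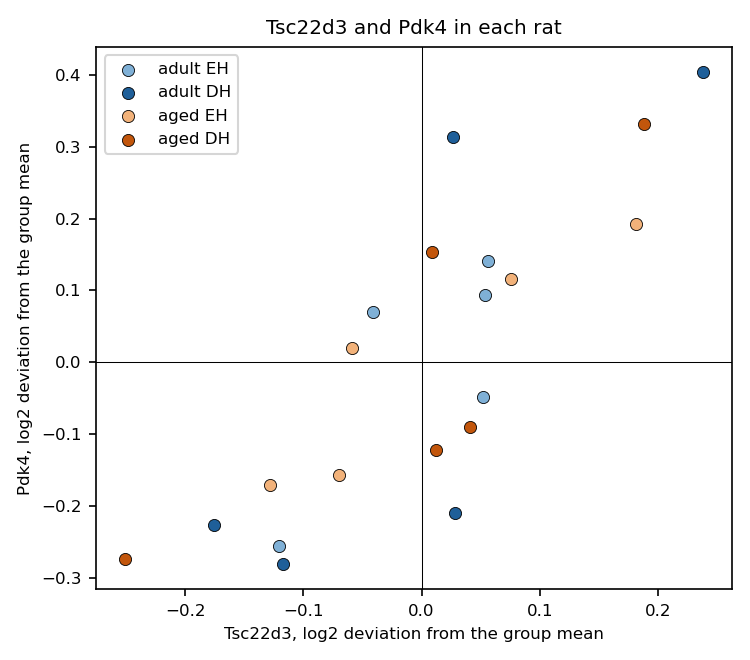
Log2 deviation of each of the 20 rats from its group mean for Tsc22d3 (horizontal axis) and Pdk4 (vertical axis), coloured by group. The points rise together (r = 0.82), with aged DH rat 3 at the lower left and adult DH rat 2 at the upper right.

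Over the same 20 rats, the gene whose within-group deviations were most like those of each called gene was sought among 15325 others, as a description without a test. For Sgk1 it was Errfi1, a feedback inhibitor of epidermal growth factor receptor signalling (Pearson's r = 0.84), and for Pdk4 it was Tsc22d3 (r = 0.82). Cdkn1a was most like Csrp1 (r = 0.87) and Sult1a1 like the tight junction gene Cldn1 (r = 0.83). Fkbp5 was most like the kinase gene Lats2 (r = 0.82), Zbtb16 like the RNA-binding protein gene Stau1 (r = 0.84) and Rasd1 like an uncharacterized gene, LOC102548225 (r = 0.80). For the receptors these were C1galt1 with Nr3c1 (r = 0.87) and Usp49 with Nr3c2 (r = 0.74). The libraries and their scaling are shared by all of these values. Each r is the highest of 15325 over 20 rats, and the highest r that unrelated genes would reach was not computed. A link between the paired genes was therefore not shown.

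Other glucocorticoid-induced genes were also mostly higher after DH in adult rats. Of 30 listed genes, 29 were tested, and 17 rose and 1 fell with DH in adult rats. Over all genes tested, 7.67% were called higher and 4.99% lower. The median LFC of the 29 genes was 0.31, against -0.01 for all genes. Those that rose included Gpd1, the cytosolic glycerol phosphate dehydrogenase (LFC 1.35, limma adjusted p = 1.3e-05), and the hypoxia-inducible factor Hif3a (LFC 1.70, limma adjusted p = 2.91e-05). The clock gene Per1 (LFC 0.64, limma adjusted p = 0.00103), the metal-binding metallothionein gene Mt2A (LFC 0.87, limma adjusted p = 0.00106) and the kinase gene Map3k6 (LFC 1.0, limma adjusted p = 0.00122) also rose. Reads of Mt2A may be shared with near-identical metallothionein genes. The gene that fell was the cell cycle inhibitor Cdkn1c (LFC -0.37, limma adjusted p = 0.0264), named after its value was seen.

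The median LFC of the 29 genes in aged rats was 0.11, against -0.00 for all genes. With DH 4 of the 29 genes rose (4.05% of all genes) and 0 fell in limma (3.25%). They were the iron-binding lipocalin Lcn2 (LFC 1.30, limma adjusted p = 0.000268), Gpd1 (LFC 0.77, limma adjusted p = 0.00138), the lipase inhibitor Angptl4 (LFC 0.60, limma adjusted p = 0.00531) and the transcription factor Cebpb (LFC 0.48, limma adjusted p = 0.0395). The LFC, with its sign, was lower in aged than in adult rats for 22 of the 29 genes, as for 50.5% of all genes. Of 21 genes with LFCs above 0 at both ages, 17 had the smaller LFC in aged rats. The 29 genes had a median adult LFC of 0.31, so the share over all genes is not matched for the adult rise. The shares among all genes with such a rise were not computed. For none of the 29 did the difference between the ages pass the limma test. At an unadjusted p under 0.05 there were 11 of the 29, and 1522 of all 15326 genes. Lcn2 was one of the 11 and had the larger LFC in aged rats (difference 0.52, limma adjusted p = 0.501). Angptl4 had almost the same LFC at both ages (difference 0.02, interval -0.32 to 0.36).

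With ageing alone, 6 of these 29 genes were higher and 2 were lower in aged EH rats, where 2.69% and 3.3% of all genes were called. The higher genes included Mertk, a phagocytic receptor kinase (LFC 0.36, limma adjusted p = 0.00401), Gpd1 (LFC 0.41, limma adjusted p = 0.00676) and the transcriptional repressor Bcl6 (LFC 0.23, limma adjusted p = 0.0162). Cdkn1c (LFC -0.77, limma adjusted p = 0.000257) and the gap junction gene Gjb6 (LFC -0.33, limma adjusted p = 0.0189) were lower.

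Chaperones and co-regulators of the receptor moved by small amounts. Of 17 tested, 6 rose with DH in adult rats (7.67% of all genes) and 3 in aged rats (4.05% of all genes), with median LFCs of 0.06 and 0.03. With ageing 0 were called in limma, where 2 were at an unadjusted p under 0.05. In adult rats these included the chaperone gene Hspa4 (LFC 0.16, limma adjusted p = 0.00162) and Bag1, a co-chaperone (LFC 0.18, limma adjusted p = 0.00997). In aged rats they were Bag1 (LFC 0.21, limma adjusted p = 0.0135), Hspa8 (LFC 0.13, limma adjusted p = 0.0326) and Hsp90aa1, the inducible form of the chaperone that holds the receptor (LFC 0.15, limma adjusted p = 0.0346). Of 12 genes of corticosteroid metabolism and transport, 7 reached the minimum level for testing, and the drug efflux pump Abcb1b was the single DEG (adult DH, LFC 0.16, limma adjusted p = 0.0141).

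Of 10 tested peptide and receptor genes of the stress axis, 5 rose with DH in adult rats (7.67% of all genes) and 3 in aged rats (4.05%), and 0 fell at either age in limma, with 0 lower at an unadjusted p under 0.05. Crh, the gene for corticotropin-releasing hormone, had LFCs of 1.04 in adult (limma adjusted p = 0.00936) and 0.99 in aged rats (limma adjusted p = 0.00637). The urocortin gene Ucn2 rose in adult (LFC 1.80, limma adjusted p = 0.00693) and aged rats (LFC 1.76, limma adjusted p = 0.00172), as did the melanocortin receptor gene Mc4r (LFC 0.73, limma adjusted p = 0.0169, and LFC 0.60, limma adjusted p = 0.0467). Levels of Ucn2 were low, with mean normalized counts of 6.54 in adult EH and 23.3 in adult DH rats. Its means in aged rats were 11.6 with EH and 39.3 with DH. Avp rose in adult rats (LFC 0.48, limma adjusted p = 0.0221), and in aged rats its LFC was 0.21 (limma adjusted p = 0.502). Ucn was higher with ageing (LFC 2.91, limma adjusted p = 0.000109) and rose with DH in adult rats (LFC 1.18, limma adjusted p = 0.0493).

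Markers of other cells moved with some of these comparisons. Over all genes, 7.67% were called higher and 4.99% lower in adult DH, and 4.05% and 3.25% in aged DH. With ageing 2.69% of all genes were called higher and 3.3% lower. For neighbouring cortical and amygdala neurones, 3 of 6 markers fell with DH in aged rats, and their summed normalized counts were 849 to 1589 in aged DH and 1648 to 3984 in aged EH rats. In adult rats the sums overlapped (938 to 2373 in DH, 969 to 3157 in EH) and 0 of 6 passed in limma, with 0 at an unadjusted p under 0.05. Summed blood markers were 15754 to 38343 in adult DH against 27447 to 54937 in adult EH, and 16637 to 34305 in aged DH against 21869 to 55798 in aged EH, and 1 of 5, Hbb, was called (aged DH). Of 8 oligodendrocyte markers, 1 fell in adult DH, 1 rose in aged DH and 5 were lower with ageing, with sums of 237891 to 289064 in aged EH and 265896 to 389550 in adult EH. Of 4 neurone markers 1 fell in adult DH, of 7 astrocyte markers 1 fell in aged DH, and of 6 endothelial markers 1 rose in adult DH. Of 5 magnocellular markers 3 rose with DH in adult and 2 in aged rats. With ageing 1 of these 5 and 3 of 7 microglial markers were higher, and 3 of 7 mural and meningeal, 2 of 6 endothelial and 2 of 7 astrocyte markers were lower. None of the listed markers was at 0 in every rat except Col1a2. The part of these shifts in the values above was not tested.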

How the data were processed

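Libraries of poly(A) RNA from SON punches of 20 rats, 5 in each of 4 groups, were analysed from 3 tables, 1 for each of the ageing, adult DH and aged DH comparisons. Per the study's methods, paired-end reads were mapped to Rn6 by STAR and assigned to genes by featureCounts, whose versions are not stated in the sources at hand. The signal deposited by the authors for each library is its read count divided by a DESeq2 size factor estimated within the table. Columns with the authors' own fold changes and p-values (DESeq2 1.28.1) were not used. Groups and rat numbers were taken from the labels, whose protocol text names 18 months for all rats while the age field gives 3 months for adult rats.

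In all 30 columns, every value checked was a whole number of reads within 0.1 read after division by the step of the column. Zeros and the highest values were outside this check, and the highest were rounded to whole reads. Rats in 2 tables gave the same reads. The recovered reads were scaled together by the median of ratios for the levels printed per rat. Tests used limma 3.58.1 (R 4.3.3) with a mean-dependent prior on log2 of the deposited value plus 1, for genes whose mean deposited value over the fitted libraries reached 10, two-sided, with Benjamini-Hochberg adjustment. The age difference took each rat's value from the DH table of its age. Alternatives were a pseudocount of 10, no filter, a minimum mean of 50, libraries centred on their median, each rat left out, a replicate block, edgeR 4.0.16 and DESeq2 1.42.0 on the recovered reads and, chosen after seeing the data, all libraries scaled and fitted together. Scripts were tested on simulated data. Figures were drawn with matplotlib 3.10.9.

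The genes, lists and tests were chosen with earlier results of these data known. Named are the 10 genes, called genes of other lists (at most 5 per list and comparison, by adjusted p), the gene most like each called gene, and Avp and Oxt. Ep300, Abcb1a, Cyp11b1, Snap25 and Pecam1 were not analysed here. Rats with the same number in different groups did not deviate together (correlations of -0.0825 to 0.162 over genes), so the numbers were not taken as pairs.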

Additional observations from a re-analysis of the deposited data

Results flagged for a closer look

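Of the 40 sets of 5 rats (10 genes in 4 groups), 1 held a rat far from the others. Fkbp5 in adult EH rat 6 was at 797.3 normalized counts, and its gap to the nearest of the other 4 rats, which lay between 883 and 898, was 0.854 of the group's range (critical value 0.71). About 1 in 20 such sets would be marked by chance. Without this rat the LFC of Fkbp5 with DH in adult rats was 0.55 (limma adjusted p = 0.000980) and the gene was still called.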

How the results depend on the processing

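The counts of called genes among the 10 stayed at 8 or 7 in adult DH, between 2 and 4 in aged DH and at 0 for the difference between the ages. In ageing the count was 0 in every alternative except without aged EH rat 4, where it was 2, so that leaving out rats gave 0 to 2. Among the other glucocorticoid-induced genes the ageing count went from 8 to 5 when all 20 libraries were scaled and fitted together, an analysis chosen after seeing the data, and the cause was not tested. Leaving out 1 rat gave 13 to 20 of these in adult DH (18 with all rats), 3 to 5 in aged DH and 6 to 9 in ageing. Of 820 LFCs of the 10 genes under alternatives, 791 kept their direction and side of the threshold, 18 lost a call, 7 gained one and 4 changed sign. The sign changes were of LFCs near 0. For Tsc22d3 in the difference between the ages, leaving out 1 rat gave -0.0777 to 0.032, and for Rasd1 in ageing it gave -0.000356 to 0.11. Tsc22d3 with Pdk4 was the single pair called in all 3 alternatives of the co-variation. With the rat number as a block, 7 of the 10 genes were called in adult DH and 3 in aged DH, where Cdkn1a (LFC 0.37, limma adjusted p = 0.103) gave way to Sult1a1 (LFC 0.44, limma adjusted p = 0.0139). Over all genes the block lowered the DEGs from 1934 to 987 in adult DH, from 1119 to 653 in aged DH and from 921 to 824 in ageing. DESeq2 gave 55 against 0 for the difference between the ages, and 2253, 1532 and 1295 in adult DH, aged DH and ageing. With 5 rats a group and the spread between rats seen here, the intervals of the age difference for single genes were wide, up to 1.11 log2 units for Zbtb16.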
